A study of Mus musculus with 14 samples.

Results

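The replication-dependent histone genes were followed in polyadenylated RNA of mouse embryonic forebrain. Members were chosen by gene symbol: every row named H2ac, H2bc, H3c or H4c with a number, and the linker histone genes H1f1 to H1f5. This gave 67 of the 56941 gene IDs in the count tables, namely 5 H1, 18 H2A, 19 H2B, 12 H3 and 13 H4 genes. The set was taken up because the genotype difference of H3c3 at E18.5 in these same libraries had already been seen to be among the largest. Values of the genotype contrasts are therefore given as a description, and no test is read from them. The stage contrasts were not used in that choice and are tested, though they share libraries with it. Those of H3c3 hold the same E18.5 values and are a description. The libraries came from a cross of mice with floxed Sbno1, floxed Trp53 and the Emx1-Cre driver, which acts in dorsal telencephalic progenitors and their descendants. The early stage, E12.5 (embryonic day), used telencephalon and gave 3 libraries labelled ff, the controls, and 3 from the double conditional knockout (dcKO). Cerebral cortex at E18.5 gave 4 ff and 4 dcKO libraries. The labels do not spell out the alleles behind ff or whether those embryos carried the driver. No group had 1 gene deleted alone or the driver without floxed alleles by its label. Cells outside the Emx1 lineage in the dissected tissue keep both genes. The labels do not say whether animals were pooled, so p-values measure the spread between these libraries.

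Histone H2A, H2B, H3 and H4 form the protein core around which DNA is wound, and H1 binds the linker DNA between cores. Most of their supply is made in S phase from clustered genes that have no introns. Their messenger RNAs typically end in a conserved stem-loop in place of a poly(A) tail: the stem-loop-binding protein Slbp and the U7 snRNP direct the cut just after it, and the RNA is broken down when DNA synthesis stops. Some of these genes also make transcripts that run past the stem-loop to a poly(A) signal, and such tailed forms are known from differentiated cells. Libraries made with the TruSeq Stranded mRNA kit select RNA by its poly(A) tail, so the values below count the tailed fraction and whatever untailed RNA was carried over, not the total histone messenger RNA.

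The ends of the annotated transcripts bear on what such libraries can capture. In the GENCODE M21 models (GRCm38) a copy of the histone stem-loop was found in 45 of 67 members, and 22 of those 45 had models that ended within 60 bases of it. The other 23 ran further. A poly(A) signal, AATAAA or ATTAAA, stood in the last 40 bases of the models of 16 members. Several models without a stem-loop were short, such as H4c12 with 312 bases, H2bc13 with 381 and H3c10 with 411. A stem-loop or poly(A) signal past the end of a model could not be seen. The following sites are shown because they belong to the members with the most counts or the largest differences. Each is given 5′ to 3′ as DNA of the transcript strand, with the stem-loop in capitals and up to 5 bases on each side.
H2bc27: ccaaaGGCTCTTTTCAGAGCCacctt
H2ac25: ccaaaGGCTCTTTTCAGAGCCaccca
H1f2: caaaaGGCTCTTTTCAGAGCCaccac
H4c9: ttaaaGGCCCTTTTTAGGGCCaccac
H2bc11: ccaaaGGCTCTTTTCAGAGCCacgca
H2bc12: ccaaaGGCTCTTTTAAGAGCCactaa
H3c3: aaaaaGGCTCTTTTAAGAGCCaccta
H4c2: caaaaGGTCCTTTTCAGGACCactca
The most frequent form, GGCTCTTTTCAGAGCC, was found in 26 members. The form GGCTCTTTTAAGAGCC, with another loop base, was found in 5 members: H3c3, H2bc12, H2bc3, H3c6 and H3c7. H4c9 and H4c2 carried stems of other letters. After the stem-loop the model went on for 169 bases in H2bc27, 840 in H1f2, 1643 in H2ac25 and 330 in H4c9, and each of these 4 ended with a poly(A) signal. It went on for 23 bases in H2bc11, 30 in H2bc12, 28 in H4c2 and 74 in H3c3, and no poly(A) signal was found there. The annotation of the deposited tables is not given in the sources used here and differs from M21, so these models describe annotated transcripts, not the reads.

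Expected counts per library totalled 42.0 to 82.0 M in 12 libraries, with 4.92 M in E12.5 ff replicate 1 and 5.98 M in E18.5 dcKO replicate 1. A single count equalled 0.203 and 0.167 CPM (counts scaled to a common library total) in these 2 shallow libraries. After the further library scaling of the CPM values given here, it equalled 0.205 and 0.152 CPM. Transcripts of chromosome Y and Xist marked every dcKO library as male, and 3 of the 7 ff libraries as female, 1 of them from E12.5. Ttr, a choroid plexus transcript, had 1.82 TPM (abundance per transcript length) in replicate 3 of E18.5 dcKO, whereas no other library of that stage had less than 1401 TPM. The targeted gene Sbno1 averaged 105 ± 9.09 CPM in E12.5 ff and 70.1 ± 5.77 CPM in E12.5 dcKO (SD, n = 3), a log2 fold change of −0.59 (SE 0.09; edgeR adjusted p = 0.0505). The E18.5 means of Sbno1 were 74.8 ± 1.86 CPM for ff and 71.3 ± 3.45 CPM for dcKO (SD, n = 4), a log2 fold change of −0.03 (edgeR adjusted p = 0.682). For Trp53 the E12.5 means were 122 ± 15.99 and 106 ± 2.31 CPM (log2 −0.23, SE 0.09; edgeR adjusted p = 0.218), and the E18.5 means 76.2 ± 1.93 and 64.1 ± 7.15 CPM (log2 −0.20, SE 0.06; edgeR adjusted p = 0.0319). In TPM the E18.5 libraries of Sbno1 ran from 14.7 to 18.4 in ff and from 18.78 to 26.19 in dcKO. These did not overlap, with dcKO higher. Over all genes tested the median log2 fold change at E18.5 was 0.12 from log2(TPM + 1) and 0.03 from counts. Neither unit showed a clear fall of Sbno1 at E18.5, and loss of the floxed part itself was not measured. At that stage dcKO therefore stands for the libraries labelled dcKO. Emx1, a marker of dorsal telencephalon, was present in every library and lower in dcKO at both stages, by log2 −0.96 (SE 0.08; edgeR adjusted p = 0.00833) and −0.81 (SE 0.07; edgeR adjusted p = 8.31e-06).

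Histone genes took a small share of each library. Their counts summed to 0.0231% to 0.0273% of all counts in E12.5 ff and 0.0314% to 0.0342% in E12.5 dcKO. At E18.5 the share was 0.0142% to 0.0169% in ff and 0.0161% to 0.0190% in dcKO. A few members held most of it: H2bc27 had 33.8% of the summed member CPM over the 14 libraries, H2ac25 33.2%, H2bc21 7.46%, H1f2 4.86%, H4c9 4.46% and H2bc4 4.25%. All but H2bc4 of these 6 have a poly(A) signal at the end of the model. No count in any library fell on H2ac1 and H2bc1, and 25 members had a count in all 14. Between 39 and 62 members had a count in a given library. Of the 100-base stretches of the models, more than 50% recurred in another member for 24 genes, so reads of those genes could be split between copies by the estimate of counts. In 24 members an exon overlapped another annotated gene, most often an antisense model over an H2A gene.

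The summed level of all 67 members, scaled by TMM (a library scaling of edgeR), was 253 ± 21.4 CPM in E12.5 ff and 323 ± 11.8 CPM in E12.5 dcKO (SD, n = 3 each), 1.28-fold higher without overlap of the groups. The E18.5 sums, 164 ± 11.3 CPM for ff and 169 ± 10.7 CPM for dcKO (SD, n = 4), overlapped and had a ratio of 1.03. In TPM, which is per transcript length and not scaled by TMM, the ratio at E18.5 was 1.17. The cause of the shift was not tested. The sums were then split by the end of the transcript model, and the difference between the parts was not tested. A signal past the end of a short model would be missed. The 16 members with a poly(A) signal summed to 217 ± 15.6 and 264 ± 10.4 CPM at E12.5, and to 150 ± 10.02 and 145 ± 8.95 CPM at E18.5, in ff and dcKO. The 51 members without one summed to 36.0 ± 6.30 and 59.0 ± 2.67 CPM at E12.5, a ratio of 1.64. At E18.5 they summed to 14.05 ± 1.45 and 23.98 ± 2.75 CPM, a ratio of 1.71. Of these E18.5 sums H2bc4, whose model has no stem-loop, held 6.29 CPM in ff and 8.41 CPM in dcKO on average. H2ac18 and H2ac19 together held 3.49 and 4.53 CPM. Every dcKO library was above every ff library of its stage for the 51 members: 56.0 to 61.1 CPM against 29.0 to 41.2 at E12.5, and 20.1 to 26.1 against 12.9 to 16.005 at E18.5. By class, the ratio of dcKO to ff at E18.5 was 2.35 for H3 and 1.84 for H4 but 1.00 for H2A and 0.95 for H2B, the classes that hold H2ac25 and H2bc27. These 2 genes carry most of the sum of the members with a poly(A) signal. Gene by gene, the 13 of those members tested at E18.5 had a median log2 fold change of 0.66, with 10 above 0 and 4 called higher, H2bc24 (2.86) and H2ac8 (1.98) among them. The 15 tested members without a signal had a median of 1.09, with 15 above 0 and 6 called higher. Of all genes tested 15.6% were called higher. Members that passed the filter through their dcKO counts alone had to lie above 0, so the 2 parts are only described.

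**Figure D1:**
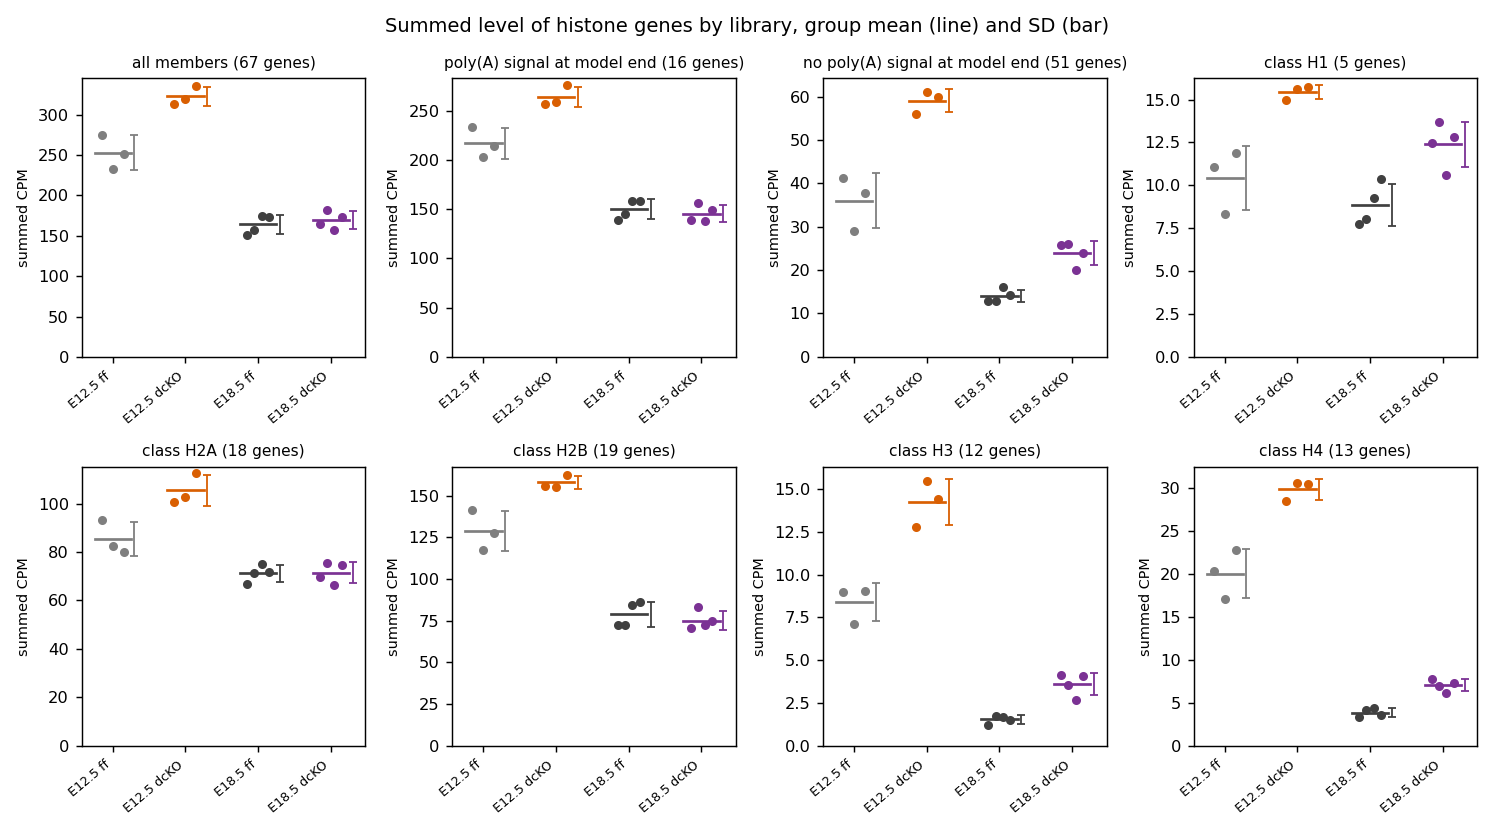
Summed TMM-scaled CPM (y axis) of histone genes in each of the 14 libraries (points), by group (x axis), for all members, for members with and without a poly(A) signal at the end of the transcript model, and for each class; lines are group means and bars are SD. At E18.5 the sum of all members overlaps between ff and dcKO, while the 51 genes without a poly(A) signal range from 12.9 to 16.005 CPM in ff and from 20.1 to 26.1 CPM in dcKO.

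Among the linker histones, H1f2 (ENSMUSG00000036181.3, chromosome 13) held nearly all counts. It was at 9.83, 7.76 and 10.5 CPM in E12.5 ff and at 13.3, 13.5 and 14.1 CPM in E12.5 dcKO. By E18.5 the levels were 7.50, 7.77, 8.64 and 10.01 CPM in ff and at 10.8, 13.1, 9.90 and 12.2 CPM in dcKO. All dcKO values were above the ff values at E12.5, and at E18.5 only the lowest dcKO value lay below the highest ff value. The log2 fold change, dcKO against ff, was 0.55 (SE 0.14) at E12.5 and 0.48 (SE 0.12) at E18.5. Unlike most members, H1f2 showed no detectable fall with stage: the log2 difference between E18.5 and E12.5 was −0.13 in ff (SE 0.13, adjusted p = 0.419 in edgeR) and −0.24 in dcKO (SE 0.13, adjusted p = 0.121 in edgeR). H1f1, second in the class by TPM, stayed at 0 to 0.322 CPM in every library, at the depth of single counts in the shallow ones. H1f3 was at 0.0531 to 0.245 CPM in E18.5 ff and at 0.290 to 1.37 CPM in dcKO, where 1.37 CPM came from the shallow replicate 1.

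H2A genes were dominated by H2ac25 (ENSMUSG00000078851.5, chromosome 11), whose model overlaps exons of Trim17 on the same strand and of Gm44313 on the other. It was at 81.7, 72.3 and 69.2 CPM in E12.5 ff and at 86.6, 86.4 and 95.5 CPM in E12.5 dcKO. In cortex at E18.5 it stood at 62.5, 67.3, 70.1 and 66.6 CPM in ff and at 61.2, 67.2, 61.7 and 67.4 CPM in dcKO. The genotypes did not overlap at E12.5 and overlapped at E18.5, with log2 fold changes of 0.28 (SE 0.08) and −0.004. With stage H2ac25 fell by 0.47 in dcKO (log2; SE 0.07, adjusted p = 1.45e-05 in edgeR), and the difference in ff was −0.15 (SE 0.07, adjusted p = 0.0736). H2ac11, in the large cluster on chromosome 13, behaved otherwise. It was at 2.46, 1.51 and 2.95 CPM in E12.5 ff and at 2.71, 3.82 and 3.43 CPM in dcKO. The E18.5 levels were 0.159, 0.0913, 0.245 and 0.113 CPM in ff and at 0, 0.315, 0.163 and 0.273 CPM in dcKO. The genotypes overlapped at both stages, and the 2 stages did not. H2ac11 fell by 3.91 in ff (log2; SE 0.41, adjusted p = 3.52e-07 in edgeR) and by 3.85 in dcKO (SE 0.41, adjusted p = 5.06e-07 in edgeR). Of the 100-base stretches of H2ac11, 76.2% recur in other members, so its reads could be split between copies.

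H2ac19 and H2ac18 on chromosome 3 are copies that share sequence over 100% and 88.1% of their 100-base stretches with other members. In E12.5 ff replicate 1 H2ac19 was listed at 0 and H2ac18 at 6.55 CPM, while the other E12.5 libraries had 2.86 to 5.51 and 1.11 to 2.02 CPM. Their sum was steadier, at 5.25 ± 1.29 and 6.84 ± 0.52 CPM at E12.5 and 3.49 ± 0.26 and 4.53 ± 1.29 CPM at E18.5 in ff and dcKO. Neither gene is therefore read on its own. H2ac8 was at 1.02, 0.912 and 1.05 CPM in E12.5 ff and at 1.36, 1.44 and 1.75 CPM in dcKO. By E18.5 the levels were 0.177, 0.0652, 0.113 and 0.169 CPM in ff and at 0.609, 0.887, 0.363 and 0.214 CPM in dcKO. The groups of each stage did not overlap, and the log2 fold changes were 0.62 (SE 0.25) and 1.98 (SE 0.50).

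H2B genes held the most abundant member. H2bc27 (ENSMUSG00000056895.5, chromosome 11) reached 363 ± 27.7 TPM in E12.5 ff, against 65.5 ± 6.58 TPM for H2ac25, 51.0 ± 3.96 TPM for H4c9 and 11.52 ± 2.63 TPM for H3c3 (SD, n = 3), a comparison between genes that is per transcript length. It was at 97.7, 80.7 and 88.3 CPM in E12.5 ff and at 109, 107 and 115 CPM in dcKO. In cortex at E18.5 it stood at 53.3, 52.8, 63.5 and 64.1 CPM in ff and at 49.1, 57.1, 48.0 and 49.6 CPM in dcKO. The dcKO libraries were all above ff at E12.5, and at E18.5 3 of 4 lay below every ff library. The log2 fold changes were 0.32 (SE 0.08) and −0.15 (SE 0.08), and the first was 0.02 with a correction for transcript length. With stage H2bc27 fell by 0.60 in ff (log2; SE 0.09, adjusted p = 1.66e-05 in edgeR) and by 1.11 in dcKO (SE 0.09, adjusted p = 1.41e-08 in edgeR). H2bc21, which has no stem-loop in its model and a poly(A) signal, was at 22.3 to 24.7 CPM in E12.5 ff and 20.1 to 22.3 CPM in dcKO, and at 11.1 to 13.8 and 9.74 to 12.9 CPM at E18.5. It was the only tested member whose dcKO libraries all lay below ff at E12.5, with a log2 fold change of −0.18 (SE 0.09).

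Among H2B genes of low level, H2bc11, H2bc12 and H2bc24 had large genotype differences, while others, such as H2bc6 (log2 0.45 and 0.14) and H2bc7 (−0.68 at E12.5), did not. H2bc11 was at 0.410, 0.688 and 1.49 CPM in E12.5 ff and at 3.81, 3.22 and 4.04 CPM in dcKO, the largest log2 fold change of a tested member at that stage, 1.92 (SE 0.36). The E18.5 levels were 0.0531, 0.0522, 0.245 and 0.0376 CPM in ff and at 0.304, 0.769, 0.671 and 0.370 CPM in dcKO, with a log2 fold change of 2.59 (SE 0.54). H2bc12 was at 1.02, 1.05 and 1.51 CPM and at 2.38, 2.21 and 2.71 CPM at E12.5. By E18.5 the levels were 0, 0.0913, 0.0377 and 0.0753 CPM in ff and at 1.22, 0.296, 0.399 and 0.429 CPM in dcKO, where the shallow replicate 1 was highest. The log2 fold changes of H2bc12 were 0.98 (SE 0.24) and 3.12 (SE 0.64). Of the 100-base stretches, 40.1% of those of H2bc11 and 70.8% of those of H2bc12 recur in other members. The groups of both genes did not overlap at either stage. H2bc24 had log2 fold changes of 1.76 (SE 0.49) and 2.86 (SE 0.59), but it shares 86.4% of its 100-base stretches with other members, H2bc23 among them. The sum of H2bc23 and H2bc24 was 0.61 to 0.94 and 1.51 to 1.89 CPM at E12.5 and 0.16 to 0.40 and 0.76 to 1.37 CPM at E18.5. H2bc4 was at 7.42 to 12.7 and 13.8 to 14.3 CPM at E12.5 and at 5.27 to 7.08 and 6.999 to 9.76 CPM at E18.5, with log2 fold changes of 0.57 (SE 0.18) and 0.48 (SE 0.12).

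H3c3 (ENSMUSG00000069310.5, chromosome 13, minus strand) was the most abundant H3 gene by TPM. It was at 3.69, 2.12 and 3.03 CPM in E12.5 ff and at 5.01, 5.83 and 6.04 CPM in dcKO. In cortex at E18.5 it stood at 0.0708, 0.0522, 0.0944 and 0.151 CPM in ff and at 1.98, 0.907, 0.580 and 0.936 CPM in dcKO. The expected counts behind the E18.5 values were 4.07, 4.11, 4.80 and 7.74 in ff and 13.3, 45.9, 32.4 and 47.6 in dcKO. At both stages every dcKO library was above every ff library. The group means differed 1.91-fold at E12.5 and 11.96-fold at E18.5, with log2 fold changes of 1.00 (SE 0.22) and 3.46 (SE 0.46). The E18.5 value was 3.17 without the shallow dcKO replicate 1 and 2.004 on the log2(TPM + 1) scale. With stage H3c3 fell by 4.95 in ff (log2; SE 0.39, adjusted p = 1.04e-08 in edgeR) and by 2.53 in dcKO (SE 0.33, adjusted p = 5.13e-06 in edgeR). These contrasts share the E18.5 libraries with the difference for which the set was taken up, and are a description. The E18.5 dcKO mean of 1.10 ± 0.61 CPM lay between those of E18.5 ff, 0.092 ± 0.043, and E12.5 ff, 2.95 ± 0.79. Of the stretches of H3c3, 28.4% recur in other members. H3c1 was at 0.598 to 1.02 and 1.11 to 1.59 CPM at E12.5 and at 0.0261 to 0.142 and 0.152 to 0.624 CPM at E18.5. H3c10 was at 0.777 to 1.57 and 1.84 to 1.95 CPM, and at 0.0177 to 0.264 and 0 to 0.565 CPM, so its genotypes overlapped at E18.5 alone. Of the stretches of H3c10, 92.0% recur in other members.

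Among H4 genes H4c9 (ENSMUSG00000060639.6, chromosome 13) was the most abundant. It was at 15.6, 13.9 and 18.3 CPM in E12.5 ff and at 20.6, 22.1 and 23.4 CPM in dcKO. The E18.5 levels were 2.07, 2.30, 2.62 and 2.16 CPM in ff and at 3.65, 3.45, 2.92 and 3.57 CPM in dcKO. The 4 groups did not overlap with one another. The genotype log2 fold changes were 0.46 (SE 0.12) and 0.60 (SE 0.15). With stage H4c9 fell by 2.80 in ff (log2; SE 0.12, adjusted p = 1.06e-11 in edgeR) and by 2.71 in dcKO (SE 0.12, adjusted p = 3.44e-11 in edgeR), although its model ends with a poly(A) signal. H4c2 was at 0.614, 0.598 and 0.535 CPM in E12.5 ff and at 1.45, 2.25 and 1.33 CPM in dcKO. By E18.5 the levels were 0.0354, 0.117, 0.189 and 0.169 CPM in ff and at 0.304, 0.453, 0.399 and 0.351 CPM in dcKO. H4c3 was at 0.374 to 0.614 and 1.12 to 1.44 CPM at E12.5 and at 0.0885 to 0.132 and 0.335 to 0.761 CPM at E18.5. For both genes the groups of each stage stood apart, with log2 fold changes of 1.55 (SE 0.31) and 1.64 (SE 0.44) for H4c2 and 1.36 (SE 0.32) and 2.25 (SE 0.38) for H4c3.

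**Figure D2:**
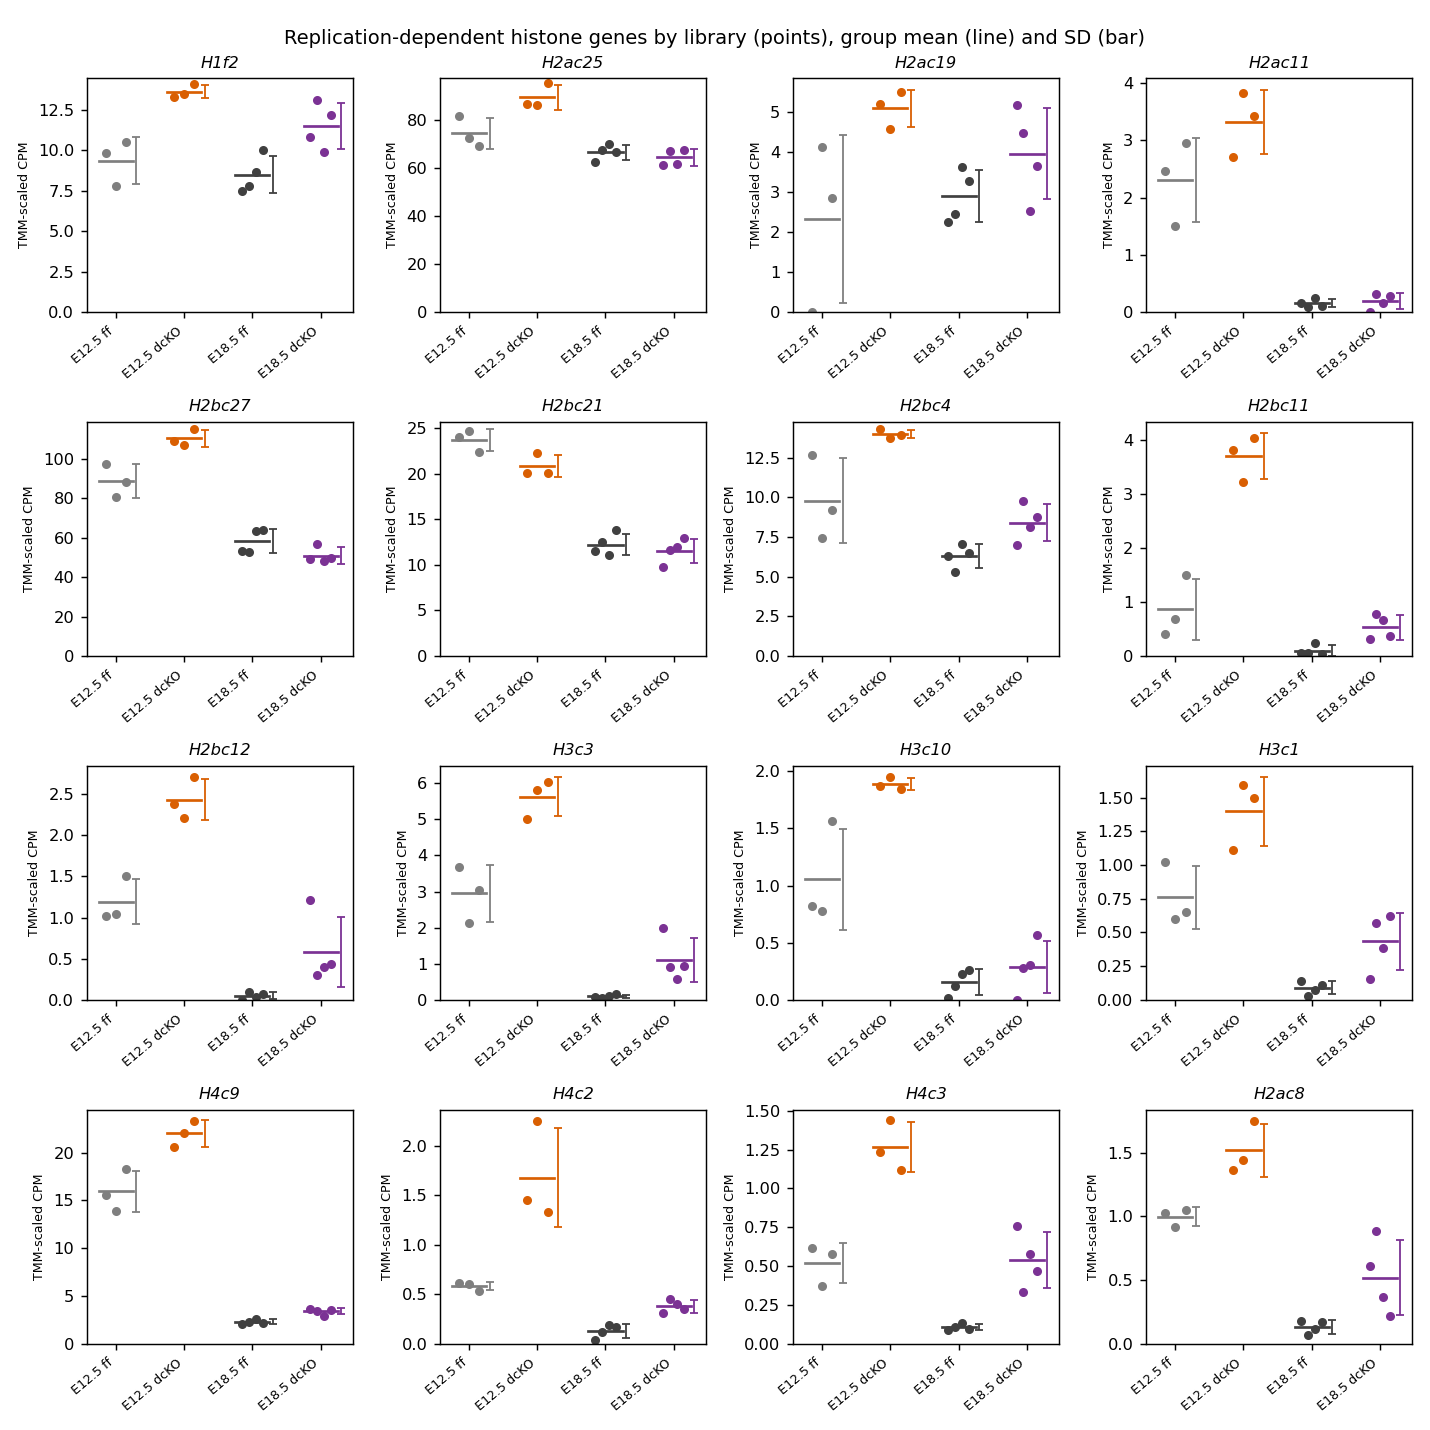
TMM-scaled CPM (y axis, from 0) of 16 histone genes in each of the 14 libraries (points) by group (x axis), with group means (lines) and SD (bars). H2bc27 and H2ac25 differ little between ff and dcKO at E18.5, whereas H3c3 is at 0.0522 to 0.151 CPM in ff and 0.580 to 1.98 CPM in dcKO.

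Read over all members, most genotype differences at E12.5 pointed upwards. Of 67 members, 53 had a higher mean CPM in dcKO, 10 a lower one, and 4 no count at that stage. The filter on low counts kept 49, of which 44 had a positive log2 fold change, with a median of 0.66 against 0.01 over all 17853 genes tested. In edgeR no member was called higher and none lower at an adjusted p of 0.05, where 0.0392% of all genes were called higher and 0.151% lower. At an unadjusted p of 0.05 edgeR had 21 members higher and 0 lower, where 3433 of the 17853 genes passed in either direction. The DESeq2 Wald test called 5 members higher after adjustment, where 297 genes were, and limma-trend on log2(TPM + 1) called 0. The dcKO and ff libraries did not overlap in 25 of 49 members with dcKO higher, against 13.5% of all genes, and in 1 (H2bc21) with dcKO lower, against 13%. Short genes were generally higher in dcKO at this stage: over all genes the log2 fold change had a Spearman correlation of −0.41 with transcript length, a description across genes, and 45 of the 49 members were shorter than the median gene. With a length correction the members' median was 0.44. The part of length in the member values was otherwise not tested.

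At E18.5, 51 of 67 members had a higher mean CPM in dcKO and 14 a lower one. Low counts removed 39 members, of which 30 were higher in dcKO by mean. Of the 28 tested, 25 had a positive log2 fold change, with a median of 0.70 against 0.03 over 17974 genes. In edgeR 10 were called higher, where 15.6% of all genes were, and 0 lower, where 16.6% were, with 0 lower in the DESeq2 Wald test as well and 0 at an unadjusted p of 0.05. The 10 were H3c3, H2bc12, H2bc24, H2bc11, H4c3, H2ac8, H4c2, H4c9, H1f2 and H2bc4. Every dcKO library was male and 2 of 4 ff libraries were female. With sex as a covariate 8 members were called, where 2317 genes were higher, and H2ac8, H2bc4 and H4c9 were not among them. A member kept by the filter through its dcKO counts alone had to differ, so these counts are not support. The libraries of the genotypes did not overlap in 9 members with dcKO higher, against 13.1% of all genes, and in 0 with dcKO lower, against 20.5%. The Spearman correlation of fold change with length was 0.01. Where a mean of at least 1 CPM was asked for, 7 members were tested and 3 called, H1f2, H4c9 and H2bc4, where 2639 of 15102 genes were higher. In 1 fit of all 4 groups 52 were tested and 18 called higher, where 2015 of 19327 genes were.

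The difference between the genotype differences of the stages, which contains the same contrasts, passed the threshold for 3 members of 52. It holds the E18.5 difference of H3c3 for which the set was taken up, and is given as a description. It was higher at E18.5 for H3c3 (2.42, SE 0.51, log2), where 7.12% of all genes were higher, and lower for H2bc27 (−0.52, SE 0.12) and H2ac25 (−0.32, SE 0.10), where 9.41% were lower. Of 19 alternatives, H2bc27 was called in 18 and H2ac25 in 10. With the length correction H2bc27 (−0.24) and H2ac25 (−0.28) were no longer called, and H2bc12 and H3c11 were, with H3c3. Without E18.5 dcKO replicate 2 or E18.5 ff replicate 2 the count was 5, with 3 higher in each case.

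**Figure D3:**
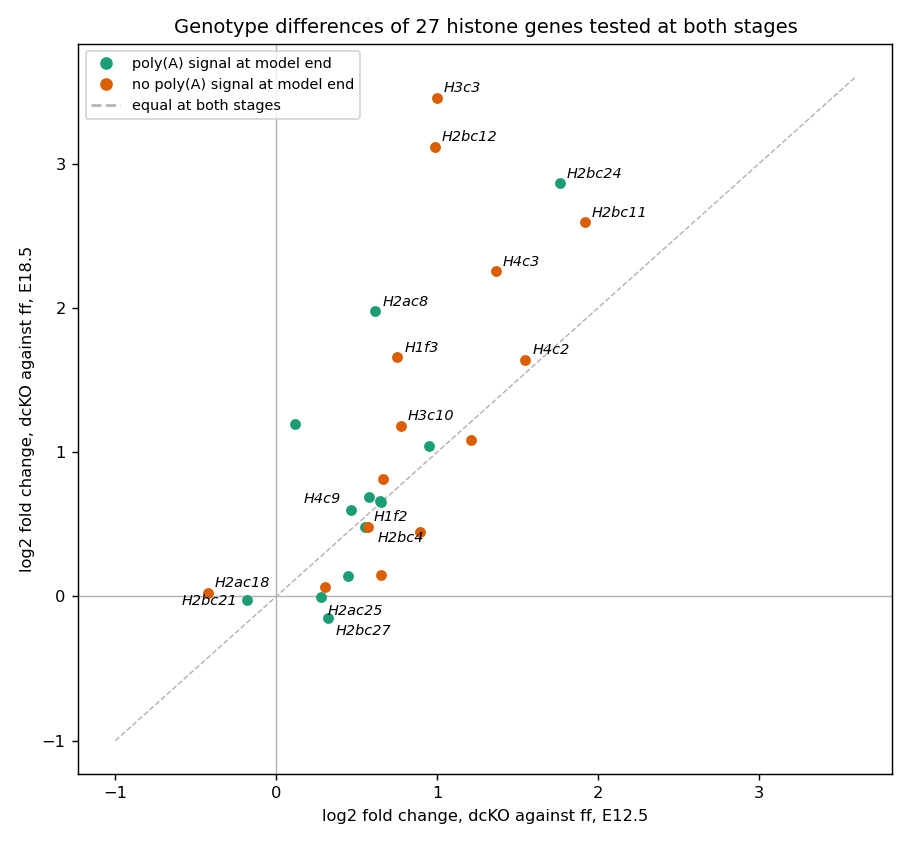
Log2 fold change of dcKO against ff at E12.5 (x axis) and E18.5 (y axis) for the 27 histone genes tested at both stages (points), coloured by whether the transcript model ends with a poly(A) signal; the dashed line marks equal values. H3c3 lies at 1.00 and 3.46, while H2bc27 lies at 0.32 and −0.15.

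Genes of the machinery around the histones gave a background to these values. Of 40 genes of S phase and DNA replication, such as the helicase subunit Mcm2, 38 had a negative log2 fold change at E12.5 (median −0.20) and none was called by edgeR. Mcm2 was at −0.36 (SE 0.07) and the transcription factor E2f8 at −0.49 (SE 0.09). The histone genes, with 44 of 49 positive, thus lay on the other side of 0 from the S-phase genes at E12.5. Fold changes fell with transcript length over all genes at that stage, and the S-phase values were not corrected for it. The histone median was 0.44 with the length correction. At E18.5, 34 of the 40 S-phase genes were positive (median 0.28), and 21 were called higher and 0 lower, among them Dtl (0.88, SE 0.08), Hells (0.73, SE 0.09), Mcm3 (0.53, SE 0.07) and Pole (0.72, SE 0.09). Of 34 genes of histone 3′ end processing and turnover, none was called at E12.5 (median −0.07), and 6 were called higher and 3 lower at E18.5 (median 0.07). Slbp itself was at 104 ± 12.3 and 103 ± 4.29 CPM at E12.5 and at 41.9 ± 2.59 and 42.9 ± 1.15 CPM at E18.5, with log2 fold changes of −0.02 (SE 0.09) and 0.08 (SE 0.06). Npat, a coactivator of histone transcription, was at −0.36 at E12.5 and 0.42 at E18.5. The U7-associated Lsm11 was at −0.24 and Snrpd3, a core protein of small nuclear RNPs, at −0.30 at E18.5. Of 28 histone chaperones 6 were called higher and 4 lower at E18.5, with Ubn1 at 0.28 and Hira, which deposits the variant H3.3, at −0.23. Of 12 histone variant genes, 2 were called higher (H3f3b, 0.20, and H3f3c, 1.15) and 1 lower (Macroh2a2, −0.15) at E18.5, and none at E12.5.

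**Figure D4:**
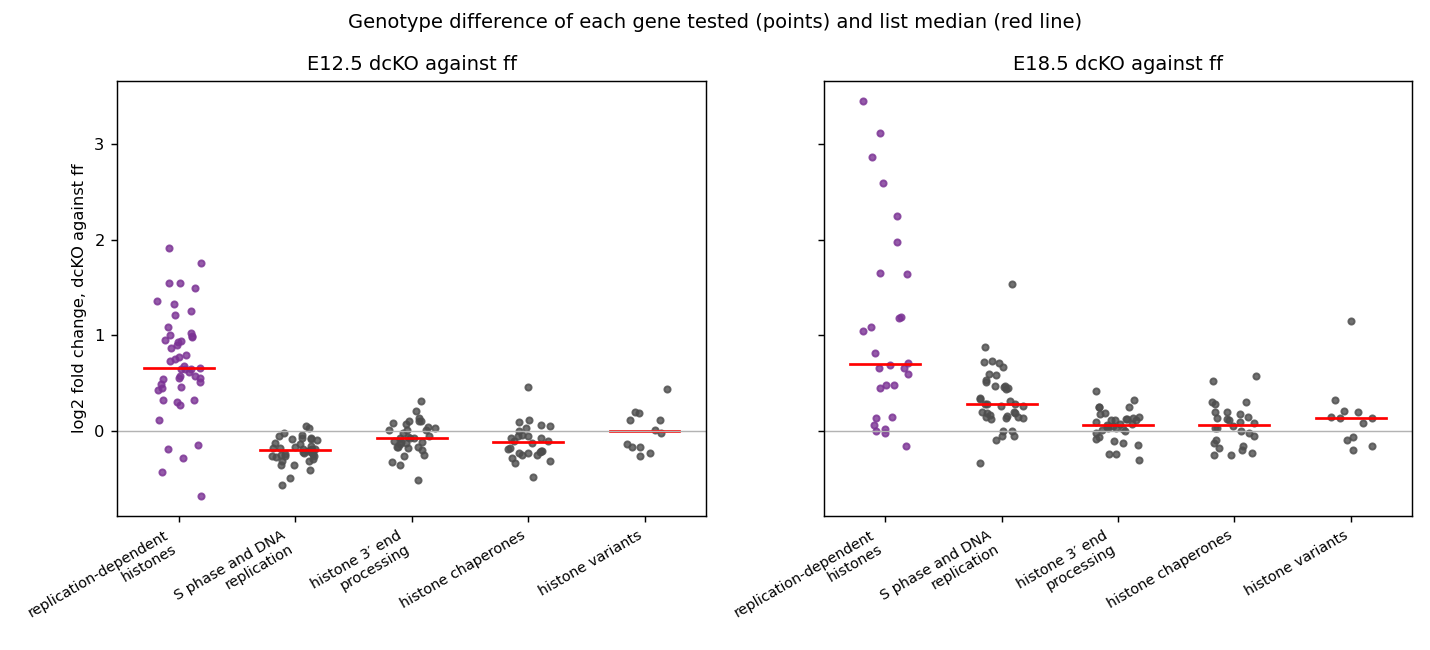
Log2 fold change of dcKO against ff (y axis) for each gene tested (points) in 5 gene lists (x axis) at E12.5 (left) and E18.5 (right), with list medians as red lines. The histone medians are 0.66 and 0.70, while the S-phase medians are −0.20 at E12.5 and 0.28 at E18.5. The values are not corrected for transcript length.

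Other cell and RNA classes were compared by genotype as well, and their part in the histone values was not tested. RNAs without a poly(A) tail, such as Rmrp and Rn7sk, were listed as a rough guide to the carry-over of untailed RNA. Whether they follow untailed histone RNA was not tested, and Rmrp was at 0 in every E12.5 ff library. Their summed TPM was 75.7 to 331 in E12.5 ff, 86.5 to 163 in E12.5 dcKO, 179 to 1272 in E18.5 ff and 96.1 to 694 in E18.5 dcKO, overlapping at both stages. Of the 4 tested, none was called at E12.5, and at E18.5 none was higher and 1 lower (Rpph1, −1.77). At least 6 of these 18 gene rows, Terc and Snord3a among them, were at 0 in each group. Of 14 progenitor markers 2 were called lower at E12.5 (Eomes, −0.74, and Mki67, −0.68) and 13 higher at E18.5, where their summed TPM was 686 to 854 in ff and 1081 to 1203 in dcKO. Of 14 neuron markers 11 were called lower at E18.5 and 2 higher (Gad1, 0.62, and Gad2, 0.83), with 6909 to 7166 TPM in ff and 4966 to 5549 TPM in dcKO. Erythroid genes summed to 12722 to 16713 and 15773 to 18399 TPM at E12.5 and to 3649 to 6197 and 595 to 2765 TPM at E18.5, in ff and dcKO. At E12.5, 11 of 13 tested were above 0 and none was called, and at E18.5, 4 of 9 were above 0, with 1 called higher (Klf1, 1.68) and none lower. Of 10 microglial markers 6 were higher at E18.5 (146 to 182 and 218 to 253 TPM), and of 10 meningeal fibroblast markers 4 were higher (238 to 435 and 386 to 547 TPM). Of 10 endothelial markers 1 was higher and of 10 choroid plexus markers none was called, with a sum of 13.6 TPM for replicate 3 of E18.5 dcKO and of at least 1473 TPM for E18.5 ff. Of 11 genes of telencephalon and cortex identity, none was above 0 and 3 were called lower at E12.5, and 3 were called higher and 6 lower at E18.5. Summed TPM of those genes was 1100 to 1305 and 842 to 935 at E12.5 and 1336 to 1536 and 1093 to 1209 at E18.5. Markers of regions outside the telencephalon summed to 181 to 327 and 271 to 304 TPM at E12.5. At E18.5 they summed to 6.47 to 9.41 TPM in ff and 14.2 to 15.3 TPM in dcKO without overlap, with 2 of 4 tested called higher (Tcf7l2, 0.75, and Gbx2, 0.79). In bulk tissue a change in the number of dividing cells cannot be told apart from a change in RNA per cell.

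With stage the histone genes fell. In ff, 35 of 52 tested members were called lower at E18.5 than at E12.5 by edgeR, where 29.9% of all genes were lower, and 0 were called higher, where 31.5% were. The DESeq2 Wald test called 37 lower and 0 higher, where 5940 of 19327 genes were lower and 6090 higher. At an unadjusted p of 0.05 edgeR had 0 higher as well. The median log2 difference was −1.67. In dcKO 29 of 52 were called lower, against 31.3% of all genes, and 0 higher, against 30.9%, with a median of −1.30. The DESeq2 Wald test called 29 lower and 0 higher there, where 5872 of 19327 genes were lower and 6332 higher. A member kept by the filter through its E12.5 counts alone had to fall, so these counts of calls are a description. In the genotype fits 22 members passed the filter at E12.5 alone and 1 at E18.5 alone. Of the called members 27 were shared, 77.1% of those in ff and 93.1% of those in dcKO. Without E12.5 ff replicate 3 the ff count was 23 lower and 1 higher (H2bc26), where 5213 of 20235 genes were lower and 5553 higher. The 14 tested members with a poly(A) signal had a median of −0.997 in ff and −0.94 in dcKO, and the 38 without one −2.04 and −1.57. The deepest falls among called members with a mean of at least 1 CPM at E12.5, the stage where they were high, were those of H3c3, H2bc12 and H2ac11 in ff and of H2ac11, H4c9 and H2bc11 in dcKO. These genes were picked by the size of the same contrast, so their p-values are a description. H2bc12 fell by 4.46 in ff (log2; SE 0.55, adjusted p = 2.24e-06 in edgeR) and by 2.34 in dcKO (SE 0.47, adjusted p = 0.000413 in edgeR). H2bc11 fell by 3.31 in ff (SE 0.53, adjusted p = 5.27e-05 in edgeR) and by 2.70 in dcKO (SE 0.47, adjusted p = 0.000114 in edgeR). No raised member could be named in either genotype.

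The S-phase genes fell too: 40 of 40 were called lower in ff and 39 of 40 in dcKO, with medians of −2.08 and −1.55 and 0 genes above 0. Of all genes 29.9% and 31.3% were called lower. Slbp fell by 1.31 in ff (log2; SE 0.08, adjusted p = 2.24e-10 in edgeR) and by 1.26 in dcKO (SE 0.08, adjusted p = 6.21e-10 in edgeR). Of the 12 variant genes 11 were called lower in each genotype, and 0 lay above 0. Of 13 erythroid genes tested, 10 were called lower in ff and 8 in dcKO, with 1 and 0 above 0. Stage, the tissue dissected and the set in which the libraries were made cannot be told apart.

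**Figure D5:**
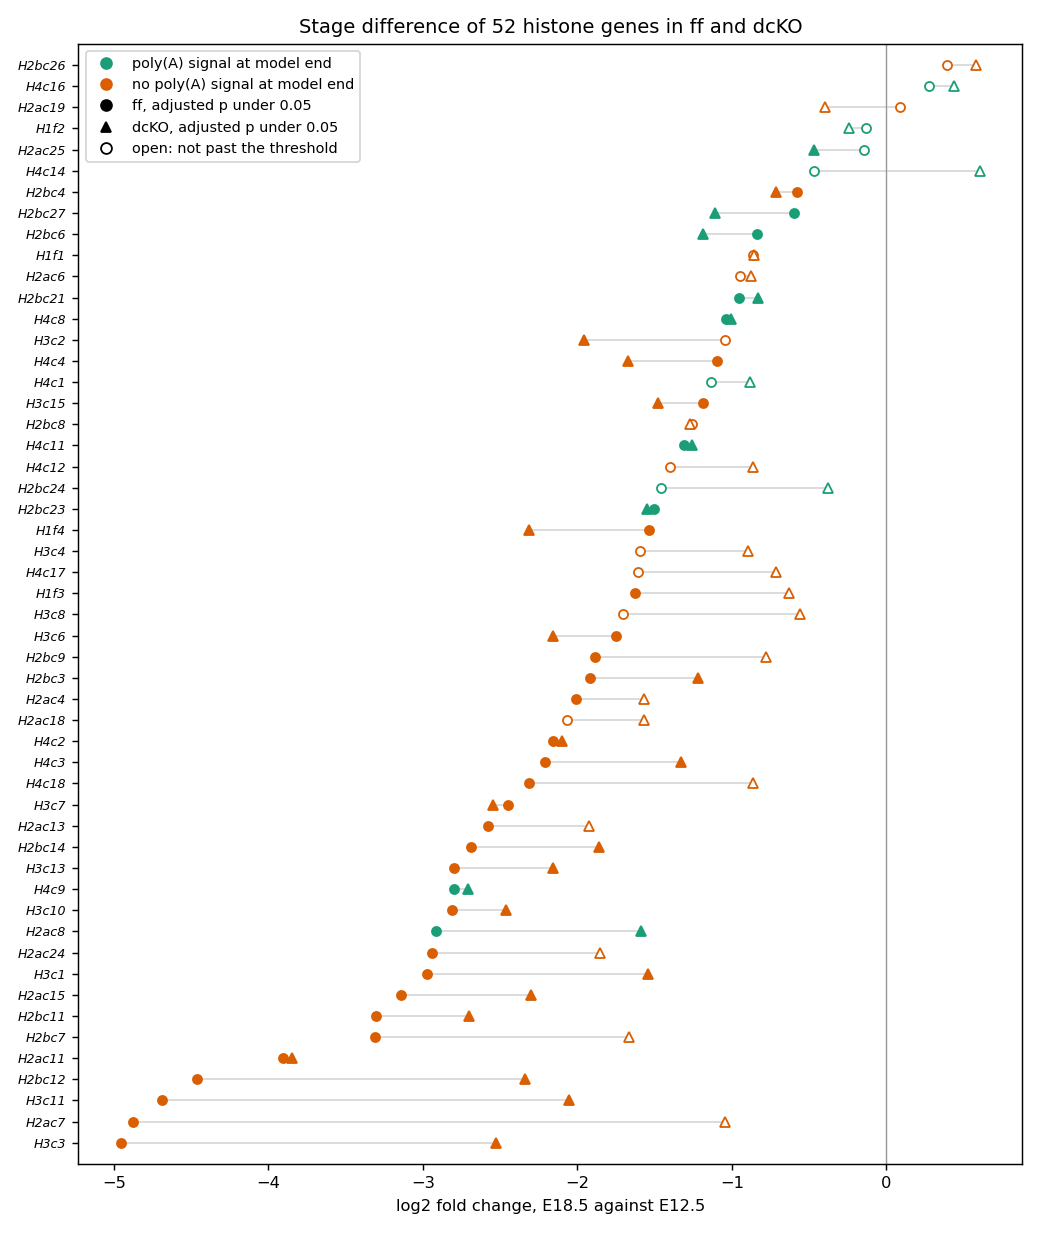
Log2 difference between E18.5 and E12.5 (x axis) for the 52 histone genes tested (y axis, ordered by the value in ff), in ff (circles) and dcKO (triangles); filled symbols passed an adjusted p of 0.05 in edgeR, and colours mark a poly(A) signal at the end of the model. H3c3 lies at −4.95 in ff and −2.53 in dcKO, and no filled symbol lies above 0.

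Promoters of 3 members are shown next: H3c3 and H2bc11, with large genotype differences, and H4c9, the most abundant H4 gene. RefSeq starts (GRCm38.p6) matched 57 members with 58 promoters of 300 bases, 250 before and 50 after the start. The letters TATAAA, on either strand, stood in 58.6% of these and in 13.6% of 32851 promoters of all genes. CCAAT, on either strand, stood in 86.2% against 37.4%: in all H1, H2A, H2B and H3 promoters and in 3 of the 11 H4 promoters. ATTTGCAT, the octamer bound by Oct-1 in H2B promoters, stood in 22.4% against 1.7%: in 7 of 15 H2B and 6 of 17 H2A promoters. CCAAT and ATTTGCAT matches can share end letters. The 250 bases before the start are given 5′ to 3′ on the strand of the gene, with matches in capitals.
H3c3 (chr13:23745522-23745771, minus strand): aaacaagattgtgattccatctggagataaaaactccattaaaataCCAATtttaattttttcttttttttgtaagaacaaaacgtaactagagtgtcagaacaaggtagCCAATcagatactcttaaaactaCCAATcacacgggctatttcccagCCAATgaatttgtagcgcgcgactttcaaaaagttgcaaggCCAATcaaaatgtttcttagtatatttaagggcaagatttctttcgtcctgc
H2bc11 (chr13:22042948-22043197, plus strand): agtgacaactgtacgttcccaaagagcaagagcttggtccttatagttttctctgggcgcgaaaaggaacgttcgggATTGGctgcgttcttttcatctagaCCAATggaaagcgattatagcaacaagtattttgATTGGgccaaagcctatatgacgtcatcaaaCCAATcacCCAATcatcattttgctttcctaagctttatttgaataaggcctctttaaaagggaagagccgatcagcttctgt
H4c9 (chr13:22041363-22041612, minus strand): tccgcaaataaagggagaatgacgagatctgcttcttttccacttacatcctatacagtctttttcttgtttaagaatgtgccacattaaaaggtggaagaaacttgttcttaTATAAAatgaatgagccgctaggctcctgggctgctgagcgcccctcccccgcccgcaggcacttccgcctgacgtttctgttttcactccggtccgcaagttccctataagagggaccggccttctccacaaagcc
H3c3 and H2bc11 each held 5 CCAAT matches in this window and no TATAAA, while H4c9 held 1 TATAAA and no CCAAT. A match of letters is no measured binding site.

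9 pairs of an H2A and an H2B gene start back to back and share upstream bases; H2bc11 and H2ac11 share 248. Read in opposite directions, that stretch lies before 2 genes with unlike genotype differences. H2bc11 was at 4.28 times its ff mean in dcKO at E12.5 and 5.45 times at E18.5, and H2ac11 at 1.44 and 1.23 times. Reads of H2ac11 could be split between copies, since 76.2% of its 100-base stretches recur in other members. Their stage differences in ff were −3.31 and −3.91. The H2bc12 and H2ac12 starts share 177 bases, and those of H2bc8 and H2ac8 share 179.

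Over the 8 E18.5 libraries, the 5 genes of 17108 tested at both stages whose log CPM ordered the libraries most like H3c3 were 2010001A14Rik, Fbxl12, Gm26549, Nfkb2 and Tlr1. Each had a Spearman correlation of 1.00 with H3c3, a description that shares the 4 ff and 4 dcKO libraries and the shallow replicate 1 with the values above. The order rested on few H3c3 counts: 4.07 to 7.74 in the ff libraries and 13.3 in the highest dcKO library, replicate 1.

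The authors' deposited table for E12.5 gave an adjusted p for 7 members, of which 6 were under 0.05 and higher in dcKO, where 1247 of 12200 genes were under 0.05 in either direction. The authors' deposited table for E18.5 listed 60 members and gave an adjusted p for 43, of which 13 were under 0.05 and higher and 0 lower, where 6315 of 19758 genes were under 0.05 in either direction. In the authors' deposited tables H3c3 had log2 fold changes of 0.84 (adjusted p = 0.00613) and 3.32 (adjusted p = 3.76e-09). H2bc27 had 0.28 (adjusted p = 0.00709) and −0.15 (adjusted p = 0.147) in the authors' deposited tables.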

How the data were processed

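RSEM expected counts and TPM values per gene were deposited by the authors for the libraries of each stage, with tables of log2 fold changes and adjusted p-values deposited by the authors. Trim Galore, STAR, RSEM and DESeq2 are named in the submitters' processing notes, and the genome build and annotation are not given in the sources used here. Groups were taken from the genotype word of each column and the stage of its table, with columns named dfl read as ff and replicates numbered in column order. For 11 of 14 samples the library name in the labels belongs to a column of another group, so no column was tied to a single sample. No column of per-sample values was left unmatched to a group (0).

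Expected counts were rounded, filtered with filterByExpr, scaled by TMM and tested with edgeR 4.0.16 (R 4.3.3), using the quasi-likelihood test with Benjamini-Hochberg adjustment over all genes at 0.05. The stages were fitted apart for genotype, and all 4 groups together for stage and for the interaction. An SE is the log2 fold change divided by the square root of F. Alternatives were DESeq2 1.42.0, limma 3.58.1 on log2(TPM + 1), other filters, a transcript length offset, sex as a covariate and libraries left out. Left out of some fits after seeing the data were the female or the shallow libraries. The code was tested on simulated data. The members and gene lists were chosen with earlier results of these data known. Members named in full were the 2 of each class with the highest mean TPM, up to 5 with the largest genotype difference where the group with more reached 1 CPM on average, and the 3 lowered most with stage by the same minimum (the alternative filter asks for that mean over all libraries of the fit); others show a range. Total counts per library, 4.92 to 82.0 M, limit members near 1 count. A further gene is not reported here.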

Additional observations from a re-analysis of the deposited data

Results flagged for a closer look

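The difference between the genotype differences of the stages passed the threshold for 3 members. For H3c3 it holds the contrast for which the set was taken up, so it is a description and no independent test. The values were 2.42 for H3c3, −0.52 for H2bc27 and −0.32 for H2ac25 (log2, E18.5 minus E12.5). Among 46 groups of 4 libraries examined, 2 held a library far from the other three, where chance gives about 1 in 20. H2bc11 was at 0.245 CPM in E18.5 ff replicate 3, above the rest of that group. H2bc12 was at 1.22 CPM in the shallow E18.5 dcKO replicate 1, above the rest of that group.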

How the results depend on the processing

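No called difference of a named member changed direction under an alternative listed here, and 106 of 117 values of the member counts and sums stayed near the reported one. With 1 fit of all 4 groups, 6 members were called at E12.5 and 18 at E18.5, in place of 0 and 10. All were higher, where 345 and 2015 of 19327 genes were higher. The DESeq2 Wald test called 5 at E12.5, where 297 of 17853 genes were higher. At that stage edgeR with no filter on low counts called 1 (H2bc11), where 43 of 28458 genes were higher. With a mean of at least 1 CPM, 3 of 7 members were called at E18.5, 8 of 12 for stage in ff and 9 of 12 in dcKO, since fewer were tested. Over all genes 2639 of 15102 were higher at E18.5, and for stage 5232 (ff) and 5328 (dcKO) of 15191 were lower. In TPM the log2 ratio of summed members was 0.2265 at E18.5 in place of 0.05, and −0.8426 for stage in ff in place of −0.62; the cause was not tested. Leaving out each library in turn gave 0 calls at E12.5 and 9 to 14 at E18.5, 24 to 35 for stage in ff, 22 to 32 in dcKO, and 2 to 5 for the interaction, with 5 without E18.5 dcKO replicate 2 or E18.5 ff replicate 2. The length offset called H2bc27 lower at E18.5 (−0.18), and H2ac19 was called higher without E18.5 dcKO replicate 3 (0.63). Male libraries alone, chosen after seeing the data, gave 0 calls at E12.5 and 7 at E18.5, all higher, where 1862 of 18717 genes were higher. No paired analysis was possible because the columns carry no replicate number shared by the genotypes. Depth limits members near 1 count, 0.205 and 0.152 CPM after TMM scaling in the shallow libraries.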
